A study of Hydra vulgaris with 15 samples.

Results

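The comparison described here asks how far the effect of RNA interference (RNAi) against the transcription factor Zic4 depends on the part of the polyp. All 15 of the 15 libraries of the series entered it, placed in 4 groups by the treatment, the replicate number and the tissue in their titles. The groups were 4 libraries of Zic4 RNAi heads, 4 of control heads, 4 of Zic4 RNAi body columns and 3 of control body columns, the last with replicate numbers 2, 3 and 4. All animals were Hydra vulgaris of the strain Basel1, starved for 4 days and electroporated 4 times as intact polyps, with RNA taken 1 day after the last electroporation. RNA came from 20 polyps per condition, so a library is a pool of animals. The RNAi animals carry the label Zic4 RNAi and the controls the label wild-type. What the controls were electroporated with, and where the polyps were cut, is not given in the sources used here. One field of the labels calls the source of every library the entire animal, and the tissue was taken from the tissue field and the titles.

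Hydra is a freshwater cnidarian with a tube-shaped body. Its head carries the mouth and a ring of tentacles, and its epithelial cells are renewed in the body column and displaced from there towards the head and the foot, where they take on the properties of those regions. Zic4 belongs to the Zic family of zinc-finger transcription factors, and in Hydra it is known for a role in tentacles. In RNAi, double-stranded RNA matched to a gene leads to the breakdown of its messenger RNA.

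The files gave transcripts as contigs of an assembly, by ID and without gene names, and no ID matched a table of 28925 RefSeq genes. Zic4 itself and the marker genes of the head, the tentacles and the body column were therefore not analysed here, and transcripts are described by ID and by their level in each group. Levels are CPM, the counts of a transcript per fixed number of counts of its library after scaling, and they compare 1 transcript between libraries, since no transcript lengths were used. Library totals lay between 16020768 and 22554104 counts, and 31142 of 79784 contigs passed the filter on low counts. Nothing in the labels states that same-group libraries came from separate cultures or days, so p-values measure the spread between libraries, which may be technical. In bulk RNA, fewer cells of a type and less RNA per cell cannot be told apart.

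With edgeR, the RNAi effect differed between head and body column for a small share of transcripts. Most of these had a called change in the head alone, which did not hold with DESeq2. The interaction was defined as the log2 fold change of RNAi heads over control heads minus the log2 fold change of RNAi body columns over control body columns. It passed an adjusted p of 0.05 in 488 of 31142 transcripts (1.57%; edgeR quasi-likelihood test, Benjamini-Hochberg adjusted). In 332 transcripts (1.07%) the effect was more negative in the head, and in 156 (0.501%) it was more positive there. The more negative ones thus made up 68% of the called, whereas DESeq2 called 1836 with 57.8% more negative in the head. Of these 1836, 547 were lowered and 350 raised in the head only. Another 287 were raised and 263 lowered in the body column only, so calls in the head alone were no longer the majority. At an unadjusted p under 0.05 the count with edgeR was 4319. The median interaction over all tested transcripts was −0.03 on the log2 scale, and that of the called transcripts had a median absolute size of 1.20. Of the 488, 309 had an interaction of at least 1 in absolute size.

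Each tissue on its own gave 1481 called transcripts in the head (4.76%) and 640 in the body column (2.06%). In heads 657 were lower after RNAi (2.11%) and 824 were higher (2.65%), whereas in body columns 169 were lower (0.543%) and 471 were higher (1.51%). A call in 1 tissue alone came mostly without a called difference between tissues. Of 1307 transcripts called only in the head, 351 (26.9%) also had a called interaction, and of the transcripts called only in the body column, 63 (13.5%) had one. The tissues agreed in direction for 152 transcripts called in both, and took opposite directions for 22, all of which had a called interaction. The body column effect rests on 3 control libraries and the head effect on 4.

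**Figure D1:**
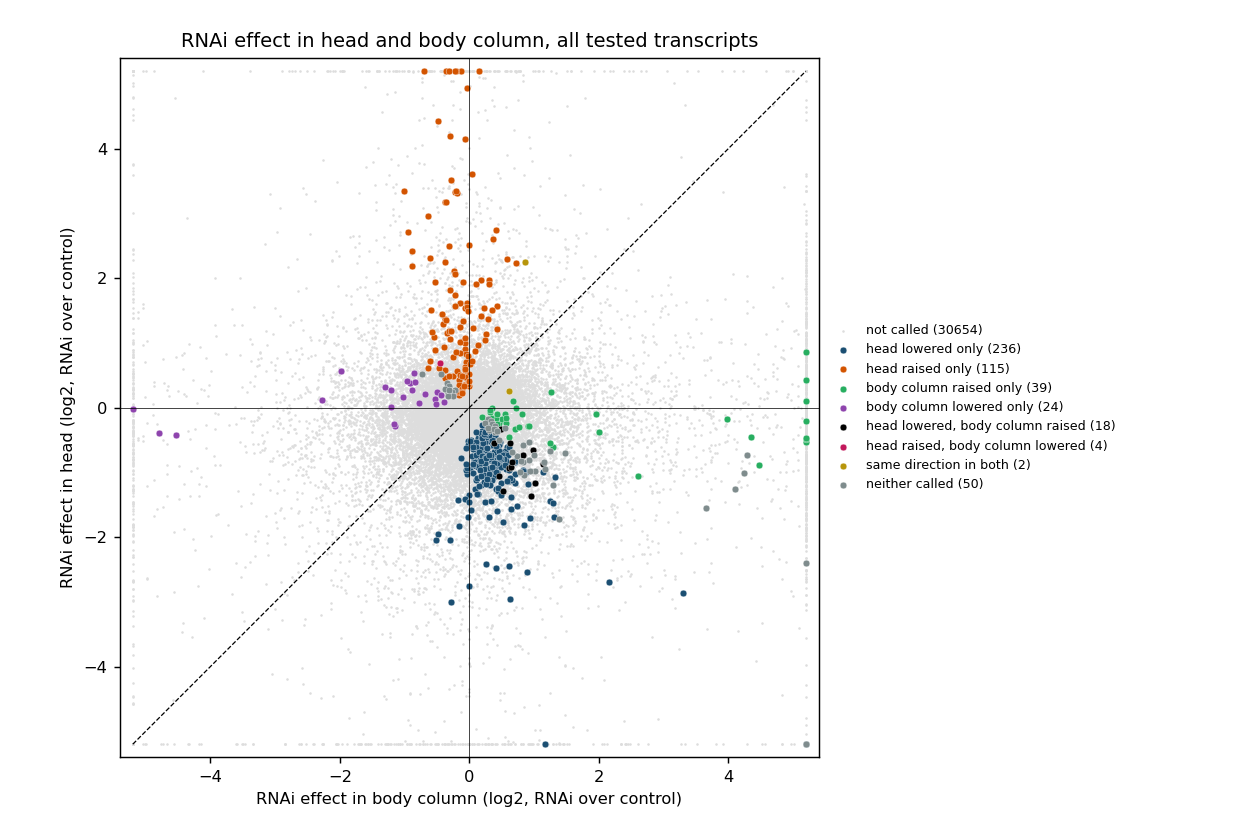
RNAi effect in the head (vertical, log2 of RNAi heads over control heads) against that in the body column (horizontal, log2 of RNAi body columns over control body columns) for all 31142 tested transcripts. Grey dots were not called in the interaction, coloured dots are the 488 called ones by kind, the dashed line marks equal effects, and values beyond the frame are drawn at its edge. Most called transcripts lie along the vertical axis, 236 below and 115 above it with a call in the head only.

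The 488 transcripts were divided into kinds by whether each tissue's own RNAi effect passed the same threshold. The kinds and their levels come from the same libraries and the same fit as the interaction, so the levels below describe the called transcripts and are no further test of them. The largest kind was lower in RNAi heads with no call in the body column (236, 48.4% of the called). The next was higher in RNAi heads with no call in the body column (115, 23.6%). Transcripts higher in RNAi body columns with no call in the head numbered 39 (7.99%), and those lower in RNAi body columns with no call in the head numbered 24 (4.92%). Opposite calls made up 18 transcripts lower in RNAi heads and higher in RNAi body columns (3.69%), and 4 with the reverse pattern (0.82%). Another 2 changed in the same direction in both tissues, and 50 (10.2%) passed in neither tissue alone.

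Among the 236 transcripts lowered in the head only, the high level was that of control heads. The median level was 15.8 CPM in RNAi heads and 27.6 CPM in control heads, against 10.9 CPM in RNAi body columns and 8.69 CPM in control body columns. The median head effect was −0.84 on the log2 scale, against −0.02 over all tested transcripts. No RNAi head overlapped a control head in 234 of the 236, beside 7.36% of all tested transcripts with RNAi heads below control heads. In body columns the fitted effect was above 0 in 219 and below 0 in 17, with a median of 0.30. None of these passed the test there. RNAi body columns lay above all control body columns in 96 of the 236, beside 8.56% of all tested transcripts. They lay below all of them in 2, beside 7.19%. A missing call in the body column does not by itself show that an effect was absent. Another 388 transcripts were lower in RNAi heads only and had no called interaction. In these the fitted body column effect was above 0 in 151 and below 0 in 228. The interaction contains the body column effect, so splitting by its call favours this contrast, which tests nothing.

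This kind held transcripts of unlike tissue pattern. Of the 236, 148 were biased towards the head in controls, meaning a called tissue difference with a log2 fold change of 1 or more, which 8.46% of all tested transcripts showed. Their median levels were 19.2 CPM in RNAi heads and 34.4 CPM in control heads, against 9.52 CPM in RNAi body columns and 7.68 CPM in control body columns. RNAi heads had thus given up part of the head excess, with a median of 42.6% of the control difference between tissues covered on the log2 scale (quartiles 32.7% and 63.4%). The other 88 had no such bias. Their medians were 12 CPM in RNAi heads, 19.4 CPM in control heads, 15.2 CPM in RNAi body columns and 12.7 CPM in control body columns. In 65 of the 88 the mean of RNAi heads lay below that of control body columns, while the median of control heads lay above that of control body columns. None of the 236 was biased towards the body column.

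GGKF01015346.1 had the largest interaction of the kind among transcripts with no library at 0. Its levels were 1.96, 1.23, 0.68 and 1.05 CPM in RNAi heads 1 to 4, against 4.70, 5.45, 8.66 and 9.94 CPM in control heads 1 to 4. Body columns had 1.05, 1.80, 0.582 and 1.59 CPM after RNAi (libraries 1 to 4) and 0.256, 0.911 and 0.832 CPM in controls (libraries 2 to 4). Control heads stood above all other libraries, and RNAi heads lay within the range of RNAi body columns or just above it. The interaction was −3.44 ± 0.69 on the log2 scale (SE; 95% interval −4.92 to −1.95; adjusted p = 0.0231). This call was lost with limma-voom (adjusted p = 0.124), without control head 4 (adjusted p = 0.0543) and without control body column 2 (adjusted p = 0.0524). It was also lost with a block by replicate number (adjusted p = 0.0789) and with a block by treatment and replicate number (adjusted p = 0.0535). GGKF01045451.1 was likewise highest in control heads, with 1.76 ± 0.503 CPM in RNAi heads and 9.56 ± 2.55 CPM in control heads, against 0.394 ± 0.183 CPM in RNAi body columns and 0.258 ± 0.0584 CPM in control body columns (means ± SD over 4, 4, 4 and 3 libraries). Its interaction was −3.05 ± 0.55 (SE; adjusted p = 0.0129), and RNAi heads kept a higher level than RNAi body columns (tissue difference 2.12 on the log2 scale, adjusted p = 0.000456). Its interaction was not called with limma-voom (adjusted p = 0.26) or with a block by treatment and replicate number (adjusted p = 0.162).

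GGKF01009446.1, chosen after its values were seen, shows such a change of order. RNAi heads 1 to 4 had 76.8, 70.4, 82.1 and 83.6 CPM, against 171, 149, 157 and 167 CPM in control heads. RNAi body columns had 99, 112.5, 92.2 and 103.9 CPM, against 84.6, 87.6 and 88.4 CPM in control body columns 2 to 4. RNAi heads were below all other libraries and control heads above all others. The interaction was −1.27 ± 0.11 (SE; adjusted p = 0.000324). The log2 ratio of head over body column was −0.38 after RNAi (adjusted p = 0.000958) and 0.89 in controls (adjusted p = 9.2e-07).

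**Figure D2:**
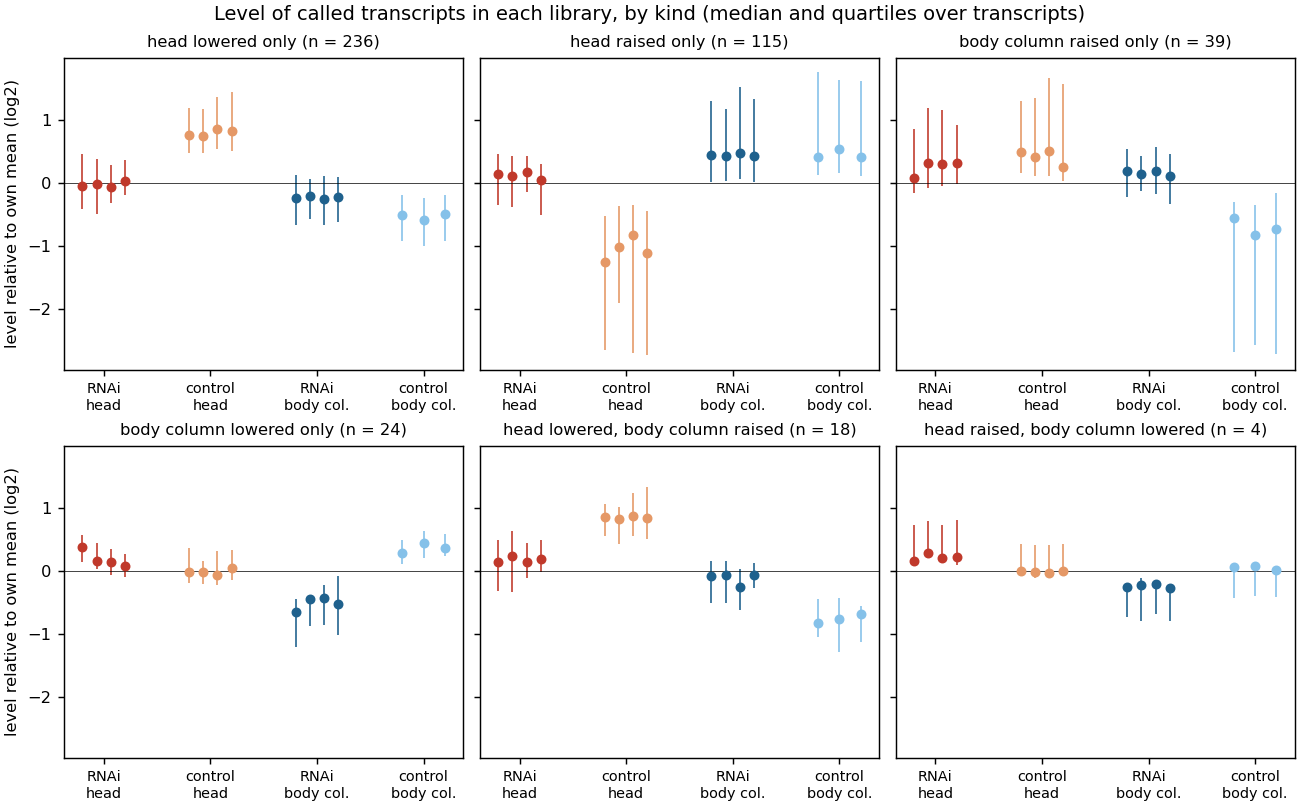
Level of the called transcripts in each library, by kind, as the log2 level minus the mean of the transcript's 4 group means. Points are medians over the transcripts of a kind, bars run between the quartiles, and each point is 1 library (RNAi heads, control heads, RNAi body columns, control body columns). In the 236 transcripts lowered in the head only, the 4 control heads stand above the other 11 libraries, and in the 115 raised in the head only they stand below them.

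The 115 transcripts raised in the head only were mostly body column transcripts that control heads held at a low level. Their medians were 19.1 CPM in RNAi heads and 7.25 CPM in control heads, against 28.7 CPM in RNAi body columns and 33.7 CPM in control body columns. The median head effect was 1.29 on the log2 scale, and RNAi heads did not overlap control heads in 110 of the 115, beside 5.82% of all tested transcripts with RNAi heads above control heads. Of the 115, 72 were biased towards the body column in controls, which 5.41% of all tested transcripts were, and none towards the head. In these 72 the medians were 8.13 CPM in RNAi heads and 2.24 CPM in control heads, against 20.7 CPM in RNAi body columns and 25.8 CPM in control body columns. RNAi heads covered a median of 58.1% of the control difference between tissues on the log2 scale (quartiles 48.7% and 83.4%), and 61 of the 72 lay between the control heads and the control body columns. The other 43 were higher in general, with medians of 54.7 CPM in RNAi heads, 34.9 CPM in control heads, 48.8 CPM in RNAi body columns and 44.5 CPM in control body columns, and in 34 of them RNAi heads stood above control body columns.

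GGKF01025409.1 was low in control heads and high in body columns. It had 38, 36.5, 49.3 and 32.2 CPM in RNAi heads 1 to 4, against 0.348, 6.11, 0.889 and 1.27 CPM in control heads 1 to 4. Body columns held 149, 122, 156 and 142 CPM after RNAi and 205, 163 and 156 CPM in controls (libraries 2 to 4). RNAi heads lay above every control head and below every body column. The interaction was 4.49 ± 0.62 on the log2 scale (SE; 95% interval 3.15 to 5.83; adjusted p = 0.00268). GGKF01066631.1 followed the same order at 10.7 ± 1.87 CPM in RNAi heads, 0.94 ± 1.43 CPM in control heads, 65.9 ± 9.70 CPM in RNAi body columns and 80.1 ± 11.7 CPM in control body columns (means ± SD over 4, 4, 4 and 3 libraries; interaction 3.80 ± 0.68, SE; adjusted p = 0.0127). In both transcripts control head 2 was the highest control head. Without that library the interactions were 5.87 for GGKF01025409.1 and 5.78 for GGKF01066631.1. In a fit with a block by treatment and replicate number, the call of GGKF01066631.1 was lost (adjusted p = 0.118). DESeq2 gave no adjusted p for GGKF01025409.1.

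Some transcripts of this kind rose past the level of body columns. GGKF01024241.1, chosen after its values were seen, had 16.6, 16.5, 11.9 and 12.5 CPM in RNAi heads, against 2.61, 2.57, 2.33 and 2.59 CPM in control heads. RNAi body columns had 4.97, 5.29, 4.65 and 4.31 CPM, and control body columns 2 to 4 had 2.94, 5.41 and 6.04 CPM. RNAi heads were above and control heads below all other libraries, while RNAi and control body columns overlapped. The interaction was 2.51 ± 0.29 (SE; adjusted p = 0.000979). Among the 488, RNAi heads stood above all other libraries in 26 transcripts, beside 0.938% of all tested ones.

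RNA that marks body columns was also followed in heads as a group. Transcripts nearly restricted to control body columns had at least 10 CPM in each of these libraries and a mean in control heads under 2% of that level, limits chosen after values were seen. There were 24, and 12 of them had an interaction called more positive in the head, beside 0.501% of all tested transcripts and 4.33% of those biased towards the body column. The choice used the control libraries that also enter the interaction, so these counts and the order of RNAi and control heads are partly fixed by it and test nothing. As a median percentage of the control body column level they stood at 8.21%, 10%, 9.66% and 7.16% in RNAi heads 1 to 4, against 0%, 3.53%, 0.06% and 0.2% in control heads 1 to 4. Control head 2 stood apart from the other control heads, yet below each RNAi head. Between 1 and 3 of the 24 were at 0 in an RNAi head, against 2 to 13 in a control head. A share of body column tissue in the head pieces was not tested. Without control head 2, 444 interactions were called and 124 transcripts were raised in the head only.

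Opposite calls in the tissues were rare, whereas fitted effects of opposite sign were common among the 488. Of the 332 more negative in the head, 326 had a fitted effect below 0 in heads and 315 one above 0 in body columns. Of the 156 more positive there, 151 had one above 0 in heads and 129 one below 0 in body columns. A called interaction in part selects such signs. DESeq2, with 1836 called, gave 102 transcripts lower in RNAi heads and higher in RNAi body columns, and 28 with the reverse pattern. In the 18 transcripts lower in RNAi heads and higher in RNAi body columns, medians were 42.5 CPM in RNAi heads and 56 CPM in control heads, against 30.5 CPM in RNAi body columns and 21.8 CPM in control body columns. The median effect was −0.70 in heads and 0.57 in body columns on the log2 scale, and 14 of the 18 were biased towards the head in controls. In 17 of the 18 the difference between tissues was smaller after RNAi than in controls. In all 18 the libraries of the treatments did not overlap in either tissue, beside 7.36% of all tested transcripts in heads and 8.56% in body columns.

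GGKF01007176.1 had 12.9, 16.9, 11.2 and 17.1 CPM in RNAi heads, against 35.4, 35.3, 42.9 and 36.4 CPM in control heads. It had 18, 20.1, 17.3 and 19.3 CPM in RNAi body columns, against 9.60, 7.41 and 11.8 CPM in control body columns 2 to 4. RNAi heads lay just below RNAi body columns, by a difference that did not pass the test (−0.36 on the log2 scale, adjusted p = 0.104), whereas control heads stood above control body columns. The head effect was −1.37 ± 0.15 (adjusted p = 0.000189), the body column effect 0.96 ± 0.17 (adjusted p = 0.0171) and the interaction −2.32 ± 0.23 (SE; adjusted p = 0.000327). GGKF01007169.1 averaged 14.5 ± 3.58 CPM in RNAi heads and 32.5 ± 2.38 CPM in control heads, against 21.5 ± 1.35 CPM in RNAi body columns and 10.6 ± 0.939 CPM in control body columns (means ± SD over 4, 4, 4 and 3 libraries; interaction −2.18 ± 0.22, SE; adjusted p = 0.000332). In this transcript the order of the tissues changed, with RNAi heads below RNAi body columns by −0.56 on the log2 scale (adjusted p = 0.00889).

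The 4 transcripts higher in RNAi heads and lower in RNAi body columns all had a larger absolute difference between tissues after RNAi. In 3 of the 4 the fitted difference also changed sign. GGKF01013319.1 was a head transcript in controls, with 432.6, 393.1, 380.1 and 383.1 CPM in RNAi heads, against 239, 220, 269 and 260.2 CPM in control heads. Body columns had 18, 18.4, 19.2 and 17.1 CPM after RNAi, against 22.9, 24.8 and 26.7 CPM in controls 2 to 4. The groups overlapped in neither tissue, and the interaction was 1.14 ± 0.11 (SE; adjusted p = 0.000327). GGKF01028624.1 differed between heads and body columns by 0.54 on the log2 scale after RNAi (adjusted p = 1.1e-05) and by −0.01 in controls (adjusted p = 0.96), with 28.9 ± 1.44 CPM in RNAi heads, 24.4 ± 0.909 CPM in control heads, 19.9 ± 0.932 CPM in RNAi body columns and 24.5 ± 0.438 CPM in control body columns (means ± SD over 4, 4, 4 and 3 libraries; interaction 0.55 ± 0.09, SE; adjusted p = 0.00715). The remaining members, GGKF01053015.1 and GGKF01058852.1, named because the kind is small, had interactions of 0.52 ± 0.08 and 0.45 ± 0.08 (SE; adjusted p = 0.00531 and 0.0106). Their log2 ratios of head over body column were 0.28 and 0.34 after RNAi, and −0.23 and −0.11 in controls. With a block by treatment and replicate number, GGKF01028624.1 (adjusted p = 0.129), GGKF01053015.1 (adjusted p = 0.0976) and GGKF01058852.1 (adjusted p = 0.0863) lost their call.

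**Figure D3:**
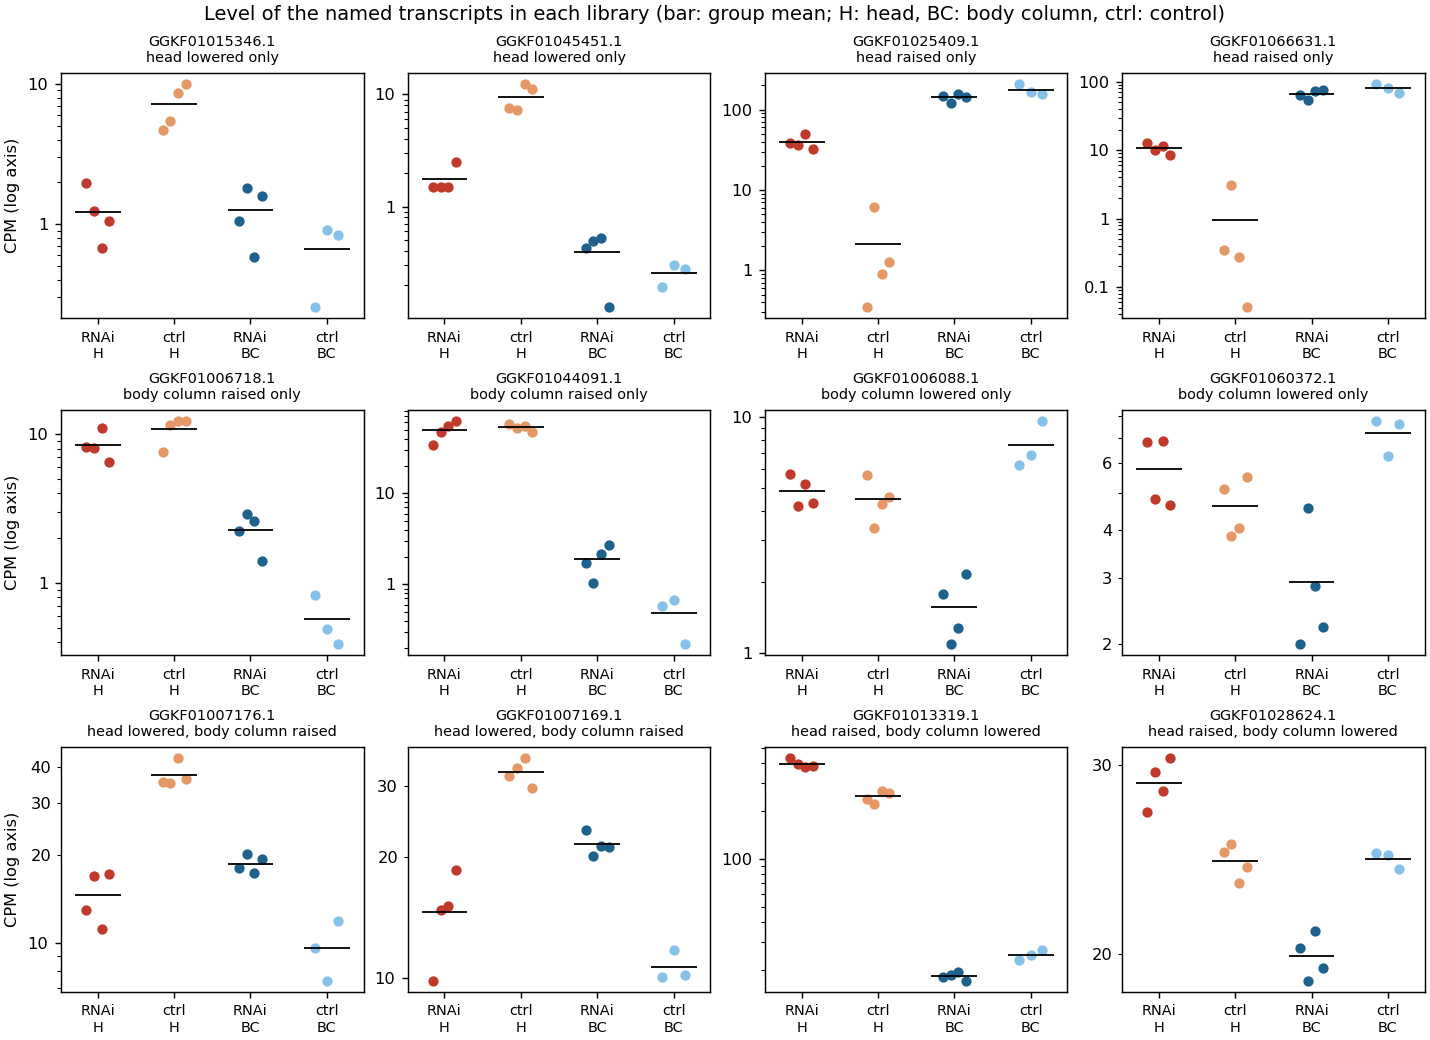
Level of 12 transcripts, 2 of each of 6 kinds, in every library (CPM, log axis; points are libraries, bars are group means; H is head, BC is body column and ctrl is control). In the upper left pair the 4 control heads stand above all other libraries, and in GGKF01007176.1 and GGKF01007169.1 RNAi lies below control in the head and above it in the body column.

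Transcripts called in the body column alone numbered 39 raised and 24 lowered, and which of these was larger depended on the processing. With the trend with abundance removed there were 27 raised and 38 lowered, with limma-voom 14 raised and 18 lowered, and without RNAi body columns 3 and 4 there were 22 raised and 29 lowered. The 39 raised in the body column only had medians of 18.5 CPM in RNAi heads, 19.1 CPM in control heads, 18.7 CPM in RNAi body columns and 7.73 CPM in control body columns, and 22 were biased towards the head in controls. RNAi body columns did not overlap control body columns in 38 of the 39, beside 8.56% of all tested transcripts with RNAi body columns above control body columns. The 24 lowered in the body column only had medians of 10.2 CPM in RNAi heads, 9.8 CPM in control heads, 4.66 CPM in RNAi body columns and 11 CPM in control body columns. Of these 24, 22 had no bias in controls, and RNAi and control body columns overlapped in none, beside 7.19% of all tested transcripts with RNAi body columns below control body columns.

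GGKF01006718.1 was scarce in control body columns. It had 2.25, 2.89, 2.59 and 1.40 CPM in RNAi body columns, against 0.832, 0.486 and 0.388 CPM in control body columns 2 to 4. Heads had 8.17, 8.15, 11 and 6.53 CPM after RNAi and 7.61, 11.6, 12.2 and 12.3 CPM in controls, and overlapped. The body column effect was 2.01 ± 0.33 (adjusted p = 0.0133), the head effect −0.37 ± 0.25 (adjusted p = 0.547) and the interaction −2.38 ± 0.42 (SE; adjusted p = 0.0106), which was not called with limma-voom (adjusted p = 0.181). GGKF01044091.1 had the same pattern over a larger difference between tissues, with 49.7 ± 12.2 CPM in RNAi heads, 53.3 ± 4.42 CPM in control heads, 1.91 ± 0.715 CPM in RNAi body columns and 0.489 ± 0.235 CPM in control body columns (means ± SD over 4, 4, 4 and 3 libraries). Its interaction of −2.07 ± 0.47 (SE; adjusted p = 0.0432) was called in 3 of the 15 fits that left out 1 library.

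GGKF01006088.1 shows the lowered kind. RNAi body columns had 1.77, 1.09, 1.27 and 2.16 CPM, against 6.27, 6.92 and 9.60 CPM in control body columns 2 to 4. Heads had 5.72, 4.18, 5.19 and 4.32 CPM after RNAi and 5.66, 3.39, 4.28 and 4.56 CPM in controls, and overlapped. RNAi body columns were below and control body columns above all other libraries, so that the body column lay below the head after RNAi and above it in controls. The interaction was 2.39 ± 0.35 (SE; adjusted p = 0.00407). GGKF01060372.1 averaged 5.79 ± 1.21 CPM in RNAi heads, 4.64 ± 0.815 CPM in control heads, 2.92 ± 1.17 CPM in RNAi body columns and 7.20 ± 0.82 CPM in control body columns (means ± SD over 4, 4, 4 and 3 libraries). Its interaction of 1.62 ± 0.37 (SE; adjusted p = 0.0445) was called in 2 of the 15 fits that left out 1 library.

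The same check was made for head RNA in body columns. With the limits used above, 76 transcripts were nearly restricted to control heads, 7 of which had an interaction called more negative in the head, beside 1.07% of all tested transcripts and 7.93% of those biased towards the head. This choice, too, shares the control libraries with the interaction. As a median percentage of the control head level they stood at 0.437%, 0.215%, 1.51% and 1.98% in RNAi body columns 1 to 4, against 0.149%, 0.299% and 0.311% in control body columns 2 to 4. RNAi body columns 3 and 4 stood above the other 5 body columns, and the part of head tissue in these 2 libraries was not tested. With both left out, a choice made after this was seen, 319 interactions were called, 208 of them more negative in the head. The kinds then held 164 transcripts lowered in the head only, 63 raised in the head only, 22 raised in the body column only, 29 lowered in the body column only and 2 lowered in the head and raised in the body column, and the body column effect was called in 159.

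The 2 transcripts called in the same direction in both tissues, named because of that count, differed in the size of the effect. GGKF01008293.1 averaged 236.5 ± 26 CPM in RNAi heads and 49.5 ± 15.7 CPM in control heads, against 208 ± 19.3 CPM in RNAi body columns and 115 ± 24.5 CPM in control body columns (means ± SD over 4, 4, 4 and 3 libraries). It rose more in the head (interaction 1.40 ± 0.27, SE; adjusted p = 0.0171), a call lost with a block by treatment and replicate number (adjusted p = 0.0503). GGKF01071723.1 averaged 395 ± 20.6 CPM in RNAi heads and 329.6 ± 4.86 CPM in control heads, against 565 ± 28.7 CPM in RNAi body columns and 370.1 ± 22 CPM in control body columns, and rose more in the body column (interaction −0.35 ± 0.08, SE; adjusted p = 0.0414; called in 3 of the 15 fits that left out 1 library). Of the 50 transcripts called in neither tissue, 38 had a more negative effect in the head. In all 38 the fitted effect was below 0 in the head and above 0 in the body column, with medians of −0.71 and 0.83 on the log2 scale. In the other 12 it was above 0 in the head and below 0 in the body column, with medians of 0.28 and −0.32.

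Seen from the tissues, head and body column were closer after RNAi than in controls in most called transcripts. The interaction equals the difference between tissues after RNAi minus that in controls. A call thus selects transcripts in which these differ, and the counts below describe the called transcripts and test nothing. The fitted absolute difference between tissues was smaller in RNAi animals than in controls for 390 of the 488, beside 57.6% of all tested transcripts, and larger for 98. The difference between tissues was called in controls and not after RNAi in 153 and after RNAi and not in controls in 57, beside 9.45% and 6.36% of all tested transcripts. In 207 it was called in the same direction in both, and in 71 it was called in opposite directions. Such a change of order was found in 77 of all tested transcripts (0.247%). Of the 71, 56 had a more negative and 15 a more positive effect in the head. In 53 of the 71 the libraries of the tissues overlapped neither after RNAi nor in controls. Over all 31142 tested transcripts, a called change of order without such overlap was found in 54, which include these 53. The share without overlap among all tested transcripts, whatever their order, is not given, so the 53 of 71 have no background here. Over the 71, the median of head over body column was −0.46 after RNAi and 0.52 in controls on the log2 scale. The fitted difference changed sign, called or not, in 214 of the 488, beside 30.2% of all tested transcripts.

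**Figure D4:**
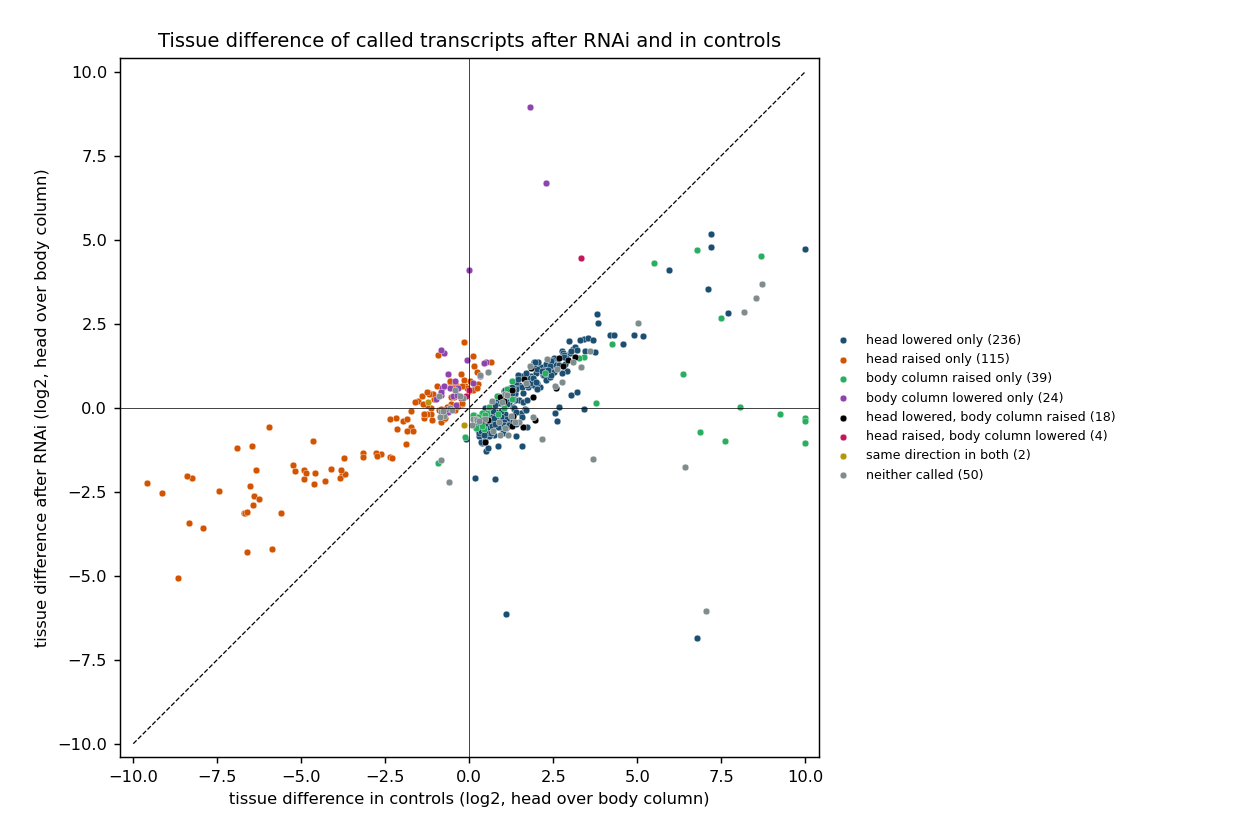
Difference between tissues after RNAi (vertical, log2 of RNAi heads over RNAi body columns) against that in controls (horizontal, log2 of control heads over control body columns) for the 488 called transcripts, coloured by kind. The dashed line marks equal differences and values beyond 10 are drawn at the frame. Most points lie closer to 0 on the vertical than on the horizontal axis, and 390 of the 488 had a smaller absolute difference after RNAi.

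Control heads were the group that stood apart most often. All 4 control heads lay above all other 11 libraries in 216 of the 488 and below them in 93, beside 4.3% and 2.94% of all tested transcripts. All control body columns lay below every other library in 107 and above in 30, beside 2.14% and 2.24%. RNAi heads lay below all others in 26, beside 0.511%. RNAi body columns lay above all others in 14 and below in 21, beside 2.81% and 1.52%. In 73 of the called transcripts no group stood apart in this way. Such patterns are in part what a called interaction selects, so the counts describe where the called differences lie.

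By bias in controls, an interaction more negative in the head was called in 209 of the 2634 transcripts biased towards the head (7.93%) and in 123 of 26824 without bias (0.459%). One more positive in the head was called in 73 of the 1684 biased towards the body column (4.33%) and in 80 without bias (0.298%). The bias and the interaction share the control libraries, and nothing is tested by these counts. Together the 332 more negative transcripts held 1.24% ± 0.0685 of the counts of RNAi heads and 2.18% ± 0.193 of those of control heads, against 0.975% ± 0.0256 in RNAi body columns and 0.818% ± 0.0561 in control body columns (means ± SD over 4, 4, 4 and 3 libraries). The 156 more positive ones held 1.19% ± 0.037 in RNAi heads and 0.854% ± 0.0461 in control heads, against 1.31% ± 0.0386 in RNAi body columns and 1.45% in each control body column.

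Measures of whole libraries that did not depend on any call also differed between the tissues in their response. With every library reduced to 16020768 counts, RNAi heads had a count in 37260 ± 471 transcripts and control heads in 40070 ± 954, against 36790 ± 355 in RNAi body columns and 35620 ± 1020 in control body columns (means ± SD over 4, 4, 4 and 3 libraries). RNAi heads had 37179, 36935, 36982 and 37949 detected transcripts, all below the lowest control head at 39183. Body columns had 36888, 36322, 37175 and 36773 after RNAi and 35457, 34682 and 36709 in controls, and overlapped. The difference of the effects was −3978 transcripts (two-sided exact permutation test within tissues, p = 0.000816, adjusted 0.00245 over 3 measures; the smallest p that 2450 arrangements can give is 0.000408). The arrangements take RNAi to have no effect in either tissue, so p is not exact for equal effects in both.

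The first principal component of log2 CPM, which held 27.8% of the variance, separated the tissues and gave the same order. RNAi heads scored 68.4 ± 6.09 and control heads 107.5 ± 9.79, against −97.5 ± 4.64 in RNAi body columns and −104.5 ± 3.63 in control body columns (means ± SD over 4, 4, 4 and 3 libraries). The difference of the effects was −46.1 (same exact permutation test, p = 0.00163, adjusted 0.00245). The 100 most abundant transcripts held 32.6% ± 2.99 of the counts in RNAi heads and 30.6% ± 2.22 in control heads, against 32.6% ± 0.833 in RNAi body columns and 33.9% ± 2.11 in control body columns. That difference of the effects, 3.35 percentage points, did not pass (exact permutation p = 0.133, adjusted 0.133).

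**Figure D5:**
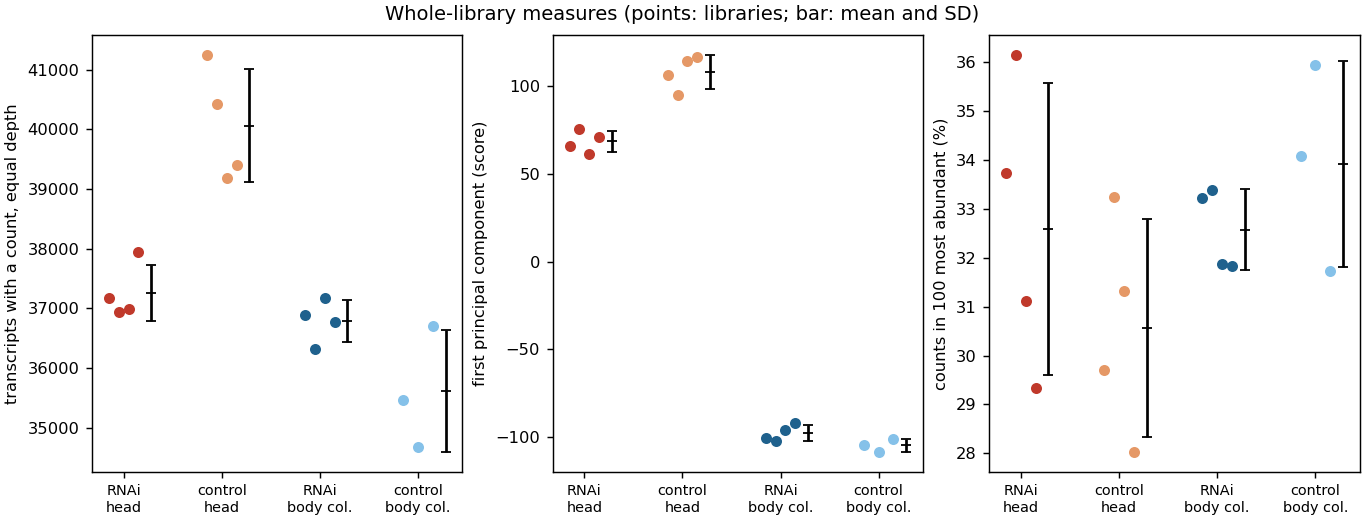
Transcripts with a count at equal depth, score on the first principal component and percent of counts in the 100 most abundant transcripts (from left to right), for RNAi heads, control heads, RNAi body columns and control body columns. Points are libraries and bars are mean and SD. In the left and middle panels RNAi heads lie apart from control heads in the direction of the body columns, and in the right panel the groups overlap.

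Transcripts of low level were seldom called. Of transcripts under 1 CPM on average 0.135% were called, with a median SE of the interaction of 1.82 on the log2 scale. Between 16 and 64 CPM 3.43% were called, with a median SE of 0.161, and the smallest called interaction was 0.33. In 40 of the 488 at least 1 library was at 0, among them all 25 with an absolute interaction over 5, whose fitted size is therefore no measure of the change. The largest without a library at 0 was 4.49.

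A fit that leaves out 1 library has fewer libraries to test with, and the part of this in the falls below was not tested. The count of called interactions was lower than 488 in all 15 such fits, at 444 or fewer. It fell to 323 without RNAi head 2, to 322 without RNAi body column 1 and to 313 without control body column 3. In all 15 fits that left out 1 library, 222 of the 488 (45.5%) were called, among them all 18 transcripts lower in RNAi heads and higher in RNAi body columns, all 4 with the reverse pattern, 116 of the 236 lowered in the head only and 60 of the 115 raised in the head only. These are calls of the interaction, and the kinds themselves were less stable, because each also needs the calls of the single tissues. The 18 became 5 without control body column 3, 7 without control body column 2 or RNAi body column 2, 8 without RNAi body column 1, 10 without control head 3 or 4, and 3 with library size alone. The 4 became 0 without control body column 3 or 4. Leaving out 1 library gave 158 to 211 transcripts lowered in the head only and 74 (without RNAi head 2 or RNAi body column 1) to 124 raised in the head only. It gave 18 (without RNAi body column 3) to 71 (without control body column 4) raised in the body column only, and 6 (without RNAi body column 1 and without control body column 3) to 31 (without RNAi head 4) lowered in the body column only. Of the 39 raised in the body column only 15 were called in all 15 fits, and of the 24 lowered in the body column only 6 were. The body column effect itself was called in 103 transcripts without control body column 3, in 224 without RNAi body column 1, in 253 without control body column 2, in 293 without RNAi body column 2 and in 298 without RNAi body column 3, against 640 with all libraries. The head effect was called in 966 without RNAi head 2, against 1481.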

How the data were processed

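RNA of heads and body columns of Zic4 RNAi and control polyps was sequenced from stranded mRNA libraries, per the labels' protocols. The authors deposited expected counts per assembled contig, 1 column per library. Salmon and DESeq2 1.26.0 are named in the submitters' processing notes, and their settings are not given in the sources used here. Of the deposited nonzero expected counts 74.2% were not whole. Reads that fit several similar contigs are shared out by such estimates, so values of single contigs are uncertain, several contigs can belong to 1 gene, and a value of 0 may mean that the estimate failed. Expected counts were rounded, which changed a total by at most 145 counts, and 15782 contigs were at 0 everywhere.

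Transcripts were kept by filterByExpr (minimum count 10, 4 groups) and scaled by TMM. The tested contigs held between 99.68% and 99.83% of each library. One model with a mean per group was fitted in edgeR 4.0.16 (R 4.3.3) and tested by quasi-likelihood, and p-values were Benjamini-Hochberg adjusted over all 31142 transcripts. A call is an adjusted p under 0.05. SE and 95% intervals were derived from the fitted log2 change and its F statistic, and cover the spread between libraries. The percent of the tissue difference covered is the head effect divided by the control difference between body column and head, both on the log2 scale. The first component used a prior count of 2.

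Within each of 6 kinds the 2 transcripts with the largest absolute interaction were named, among those with no library at 0 and at least 5 CPM in their highest group. GGKF01024241.1, GGKF01009446.1, GGKF01053015.1, GGKF01058852.1, GGKF01008293.1 and GGKF01071723.1 were chosen after their values were seen. The comparison, the kinds and the rules were chosen with earlier results of these data known. Within groups log2 CPM correlated with r of 0.889 to 0.918 across transcripts, which are not independent replicates, and counts of library pairs differed by 6.38 to 43.1 chi-square units per degree of freedom, so each library counted as 1 sample. Alternatives were other scalings, DESeq2 1.42.0, limma-voom 3.58.1, other filters and thresholds, a block by replicate number and leaving out libraries; leaving out RNAi body columns 3 and 4 together was chosen after seeing the data.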

Additional observations from a re-analysis of the deposited data

Results flagged for a closer look

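Among the 63 sets of 4 libraries examined, 7 had a library far from the other 3 of its group, and chance alone flags about 1 in 20 such sets. GGKF01045451.1 had 2.51 CPM in RNAi head 4, above the other RNAi heads. Control head 2 was far above the other control heads in GGKF01025409.1 (6.11 CPM) and in GGKF01066631.1 (3.08 CPM). Control head 1 was far below the others in GGKF01006718.1 (7.61 CPM), control head 3 was far above them in GGKF01007176.1 (42.9 CPM) and far below them in GGKF01024241.1 (2.33 CPM). RNAi body column 2 was far below the others in GGKF01071723.1 (522.7 CPM).

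The 18 named transcripts were all taken from the 488 with a called interaction (1.57% of all tested), so their passing was fixed by the choice. Among the fits that left out 1 library, GGKF01060372.1 was called in 2 of 15, and GGKF01044091.1 and GGKF01071723.1 in 3 of 15 each. The RNAi effect differed between head and body column, by the test of the difference itself, for these 18 transcripts. In the head it was more negative for GGKF01015346.1 (−3.44 on the log2 scale), GGKF01045451.1 (−3.05), GGKF01006718.1 (−2.38), GGKF01007176.1 (−2.32), GGKF01007169.1 (−2.18), GGKF01044091.1 (−2.07), GGKF01009446.1 (−1.27) and GGKF01071723.1 (−0.35). It was more positive for GGKF01025409.1 (4.49), GGKF01066631.1 (3.80), GGKF01024241.1 (2.51), GGKF01006088.1 (2.39), GGKF01060372.1 (1.62), GGKF01008293.1 (1.40), GGKF01013319.1 (1.14), GGKF01028624.1 (0.55), GGKF01053015.1 (0.52) and GGKF01058852.1 (0.45). Among measures of whole libraries it differed for the number of detected transcripts (−3978) and for the score on the first component (−46.1).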

How the results depend on the processing

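The 488 interactions became 1836 with DESeq2, with 57.8% more negative in the head in place of 68%, and 309 with at least 1 on the log2 scale, 154 at an adjusted p under 0.01 and 319 without RNAi body columns 3 and 4; leaving out 1 library gave 313 to 444. Head effects numbered 958 with the trend removed, 3084 with DESeq2, 391 and 624 at the stricter thresholds, and 966 to 1508 without 1 library. Body column effects numbered 143 with library size alone, 349 with the trend removed, 2529 with DESeq2, 274 with no filter, 111 and 51 at the stricter thresholds, 159 without RNAi body columns 3 and 4, and 103 to 730 without 1 library. The control tissue difference, 8940 calls, gave 4318 at 1 on the log2 scale and 7614 to 8968 without 1 library. Library size alone shifted the median head effect to −0.14 and gave 413 interactions, 405 of them among the 488. All 488 kept their sign under the other scalings, 399 kept their call under all 3, and limma-voom shared 335. The cause of these moves was not tested.

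Over all tested transcripts, deviations of same-numbered libraries from their group means showed little correlation (21 pairs, −0.0357 to 0.0403). Of these transcripts 8876 were under 1 CPM on average, where count noise can hide a shared deviation. The check therefore cannot exclude that same-numbered libraries belong together. In the main fit the numbers were not taken as pairs. A block by replicate number gave 249 interactions, 987 head effects and 101 body column effects, and a block by treatment and number 90 interactions. The whole-library differences of the effects stayed past the threshold in this pairing for detected transcripts (−3584, exact permutation, adjusted p = 0.0429) and the first component (−46.7, adjusted p = 0.0429), and for both in all 15 fits without 1 library. Without a filter on low counts 332 interactions were called.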
